A study of Xenopus tropicalis with 5 samples.

Results

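The m5C levels of maternal mRNAs in X. tropicalis stage 0 embryos were compared, gene by gene, between low and standard amounts of RNA. Reads from inputs of 5, 10 and 20 ng were pooled at every site that was listed at all 3 of these inputs and at 100 ng, and the sites were summed per gene. A gene was kept when it had 200 or more reads on each side. Of the 3831 genes with a shared site, 2925 (76.4%) were kept, out of 6853 genes with a site in any list. The kept genes held 7621 of the 8572 shared sites (88.9%). Of the 906 genes left out, 314 were short of reads only at the lower inputs, 26 only at 100 ng, and 566 on both sides.

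5-methylcytosine (m5C) is a methyl mark on cytosine that is found in mRNA as well as in tRNA and rRNA. In animals, mRNA m5C is deposited mainly by NSUN2, the enzyme that also methylates several tRNAs, and by NSUN6, which recognizes another motif. An egg and an early embryo live on mRNA stored during oogenesis, and these maternal transcripts are replaced when zygotic transcription starts.

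In bisulfite sequencing of RNA (RNA BS-seq), bisulfite turns unmethylated cytosine into uracil and leaves m5C as cytosine. The m5C level of a site is the share of reads that stay unconverted, and the level of a gene is here the unconverted share of all reads at its shared sites. The material was polyadenylated RNA from wild-type early embryos at stage 0, with 1 library each at 5, 10 and 20 ng and 2 libraries at 100 ng. The 2 libraries at 100 ng were deposited as 1 list of values, so their own spread is not known, and input and library cannot be told apart in any comparison below. Which step of the protocol the labelled input refers to is not stated. No separate cultures or clutches are named, so p-values measure the spread between these lists, which may be technical. Among 20 egg and germ plasm genes, 15 had a listed site at 100 ng, and of 10 genes of somatic follicle cells none did, although a missing gene means only that no site of it was listed.

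The kept genes held 2159668, 2103602 and 2447063 reads at the 5, 10 and 20 ng inputs and 9888496 at 100 ng. The median gene had 841 reads in the pooled lower inputs (quartiles 418 and 2008, range 200 to 96345) and 1188 at 100 ng (quartiles 580 and 2874, range 202 to 150929). A single shared site stood for the gene in 938 cases, 849 genes had 2 sites, 921 had 3 to 5 and 217 had 6 or more, up to 23 in kmt2b. In 616 genes at least 1 pair of sites lay within 100 bases, so that 1 fragment could be counted at both, and the reads of such a gene are not all independent. The study's fragments were longer than 100 bases, so sites somewhat farther apart could share a fragment too, and the count is a minimum.

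At the shared sites, the lower inputs gave nearly the same gene levels as 100 ng. These sites had passed the minimum of 20 reads and a level of 10% in all 4 lists, which favours agreement. They were 8572 of the 18524 sites listed at 100 ng and of the 23009 in any list. The 5, 10 and 20 ng lists held 13153, 12341 and 13178 sites. The median gene level was 29.5% in the pooled lower inputs (quartiles 21.1% and 42.2%) and 29.6% at 100 ng (quartiles 21.2% and 42.7%). Each lower input alone gave a median of 29.8%, 29.6% and 29.7% at 5, 10 and 20 ng. Over all reads of these genes, 31.4% were unconverted at the lower inputs and 31.7% at 100 ng. Across the 2925 genes, Pearson's r between the pooled and the 100 ng level was 0.982 and Spearman's rho 0.974, as a description, since genes of the same libraries are not independent replicates.

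**Figure D1:**
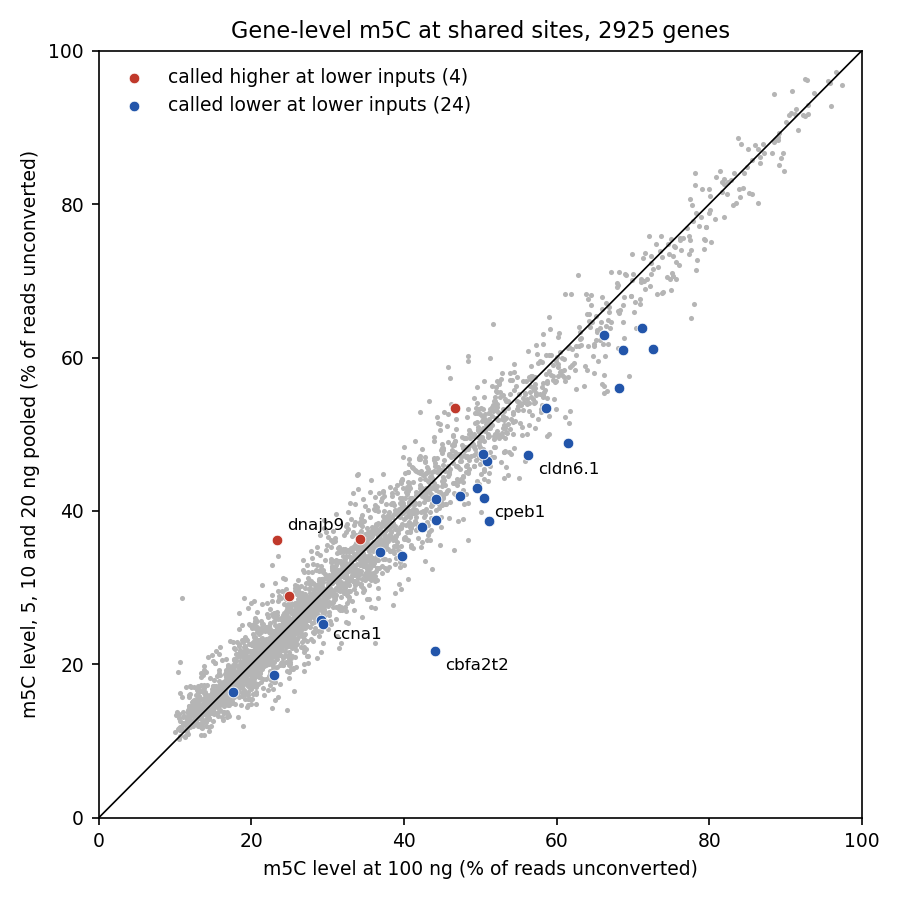
Each point is 1 of the 2925 genes, with its m5C level at 100 ng on the x axis and in the pooled lower inputs on the y axis (% of reads unconverted), and the line marks equal levels. Most genes lie along the line. The 4 genes called higher (red) lie above it and the 24 called lower (blue) below it, some by as little as 1.24 points. Some genes that were not called lie farther from the line than called ones.

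The difference of a gene, pooled lower inputs minus 100 ng, had a median of −0.194 percentage points and an SD over genes of 3.16 points. It was within 2 points in 56.1% of genes, within 5 points in 89.4% (2614 genes) and within 10 points in 98.9%. Beyond 10 points, 20 genes were lower and 13 were higher. The level was below that of 100 ng in 1554 genes (53.1%) and above it in 1371. With sites in the 100 ng list and at least 1 lower list, the median difference was 0.676 points over 3323 genes, in the opposite direction. In that setting a lower list adds reads only at the sites it listed, so the 2 sides sum unlike sites. All 3 lower inputs lay on the same side of 100 ng in 1198 genes (41.0%), 670 of them below and 528 above.

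Single lower inputs scattered more than the pool. A single lower input differed from 100 ng with an SD over the same genes of 4.63, 4.36 and 3.98 points for 5, 10 and 20 ng, with r of 0.962, 0.967 and 0.972. The lower inputs differed from each other with an SD of 4.96 to 5.25 points and r of 0.951 to 0.957. Scatter also fell with depth. Genes with 200 to 500 reads at 100 ng had an SD of 4.59 points, and the 444 genes with 5000 or more reads had an SD of 1.65 points.

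The sign of the difference varied with the level of the gene. In the 193 genes with a mean level of 10% to 15%, the median difference was 0.616 points and 35.2% of genes were lower at the lower inputs. The median was −0.012 points at 15% to 20%, −0.124 at 20% to 30% and −0.363 at 30% to 50%. At 50% to 70% it was −0.879 points (332 genes, 59.6% lower), and at 70% to 100% it was −0.727 points (132 genes, 63.6% lower). These medians include any change in how a gene's reads divide between its sites. With each lower-input site level weighted by the site's reads at 100 ng, they were 0.509, −0.086, −0.232, −0.383, −0.157 and −0.290 points, from the lowest group up. Every listed site had a level of at least 10% in its list, a bound that lies next to the lowest group of genes. No test was made across these groups.

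**Figure D2:**
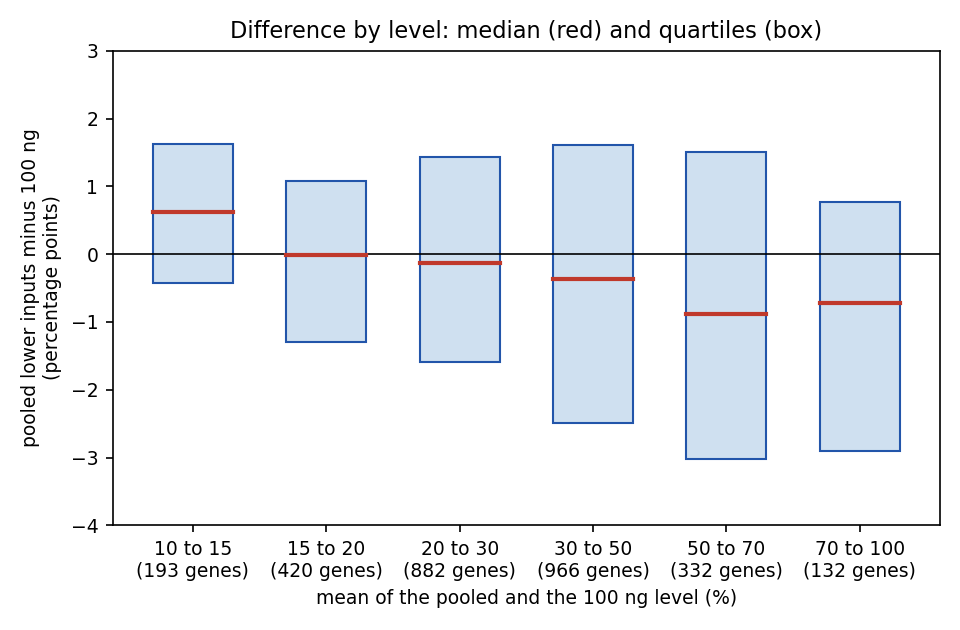
Genes are grouped by the mean of their pooled and 100 ng level (x axis, %), and the y axis gives the difference between pooled lower inputs and 100 ng in percentage points. The red line is the median and the box spans the quartiles. The median passes from 0.616 points in the lowest group to −0.879 points in the group of 50% to 70%. The differences include any change in how a gene's reads divide between its sites.

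A small set of genes differed by more than the spread between the lower inputs, once the lists were weighted by reads. The test was limma on log2 odds, with a Benjamini-Hochberg adjusted p over all 3831 genes and a threshold of 0.05. Its weights take a gene to vary less in a list with more reads, and the 100 ng list held the most. Beyond this scaling, the test assumes that the lone 100 ng list varies as the 3 lower inputs do. It called 28 genes, 0.731% of those tested. The count depended on the setting. Without weights, where every list is taken to vary alike, limma called 0 genes higher and 0 lower. In that fit 28 of the 2925 kept genes had an unadjusted p under 0.05. These need not be the 28 called genes, and their share is below the 0.05 expected without any difference. With sites in the 100 ng list and at least 1 lower list, where the lists sum unlike sites, the weighted test also called 0 and 0. In that setting 289 of 3323 genes had an unadjusted p under 0.05. The Cochran-Mantel-Haenszel test by site called 20 genes, 3 of them among the 28. Of the 28 called by the weighted test, 4 (0.104%) were higher at the lower inputs and 24 (0.626%) were lower. In all 28 the 3 lower inputs lay on the same side of 100 ng, against 1198 of all 2925 kept genes (41.0%). The call rests on the same values, so this is no separate support. In the weighted test an unadjusted p under 0.05 was found in 316 of the 2925 kept genes, a count that includes genes expected without any difference. The called genes were deeply covered, with a median of 10004.5 reads at 100 ng, and 18 of the 28 were among the 444 genes with 5000 or more reads. Their absolute differences ranged from 1.24 to 22.3 points with a median of 5.41 points. An exact permutation of 1 list against 3 cannot go below p = 0.25.

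Of the 4 genes that were higher at the lower inputs, dnajb9, an endoplasmic reticulum co-chaperone of BiP, stood farthest from 100 ng. Its level was 41.3%, 31.0% and 36.0% at 5, 10 and 20 ng, against 23.4% at 100 ng. The pooled level was 36.2% (exact Clopper-Pearson 95% interval 33.6% to 38.8%, 1337 reads), a log2 odds difference of 0.89 (SE 0.15, adjusted p = 0.00606). The intervals given for gene levels cover counting error only and take reads as independent. The sites of dnajb9 lie just over 100 bases apart, so 1 fragment could be counted at both. The actin-binding gene smtn had 54.5%, 52.8% and 52.8% at 5, 10 and 20 ng and 46.6% at 100 ng (log2 odds difference 0.39, SE 0.07, adjusted p = 0.00652). In both genes the lower inputs did not overlap with 100 ng.

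The other members of this group had smaller differences on deeper coverage. For ext1, a glycosyltransferase that polymerizes heparan sulfate, the level was 30.5%, 27.6% and 28.8% at 5, 10 and 20 ng and 24.9% at 100 ng, summed over 10 sites (adjusted p = 0.0018). The RNA helicase gene ddx5 had 36.6%, 36.6% and 36.0% against 34.3% (adjusted p = 0.0316), a call that was lost without the 10 ng list (adjusted p = 0.105). The next gene by p, slc16a1, which encodes a monocarboxylate transporter, had 38.1%, 35.7% and 38.8% against 32.7% and missed the threshold (adjusted p = 0.051). Without the 10 ng list slc16a1 passed it (adjusted p = 0.0313).

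Among the 24 genes that were lower at the lower inputs, the largest difference was that of cbfa2t2, a corepressor gene. It had levels of 17.2%, 30% and 20.2% at 5, 10 and 20 ng, and 44.1% at 100 ng. Its pooled level was 21.7% (17.7% to 26.2%, 382 reads), with a log2 odds difference of −1.52 (SE 0.30, adjusted p = 0.0191), and it had the fewest lower-input reads of all called genes. The levels of arid3b, an AT-rich interaction domain DNA-binding protein, were 45.3%, 50.5% and 51.6%, against 61.6% at 100 ng (adjusted p = 0.00442). The 3 lower inputs were all below 100 ng in both genes, with 5 ng the lowest. For daxx, a chaperone of the histone variant H3.3, the values were 60.0%, 62.5% and 61.0%, against 72.7% (adjusted p = 0.0217). Without the 20 ng list daxx was just short of the threshold (adjusted p = 0.0511).

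The level of drosha, the nuclear RNase that starts microRNA processing, was 32.6%, 44.7% and 38.9% at 5, 10 and 20 ng, against 51.2% at 100 ng (adjusted p = 0.034). Its call was lost without the 5 ng list (adjusted p = 0.052) and without the 20 ng list (adjusted p = 0.103). The exoribonuclease gene dis3l2 had 51.3%, 58.0% and 59.1% against 68.2% (adjusted p = 0.00268). Both genes had 5 ng as the lowest list. For cpeb1, the protein that binds the cytoplasmic polyadenylation element of maternal mRNAs, the levels were 38.6%, 45.4% and 42.5%, against 50.5% (adjusted p = 0.0214, and 0.051 without the 5 ng list). Another gene, thumpd1, a partner of the tRNA acetyltransferase NAT10, had 42.1%, 43.8% and 43.1% against 49.6% (adjusted p = 0.0316, and 0.0765 without the 20 ng list).

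Another gene called lower was cldn6.1, a claudin of the tight junction and 1 of several numbered copies in this family, between which reads could have been split. Its level was 44.9%, 49.1% and 48.1% at 5, 10 and 20 ng, and 56.2% at 100 ng, from 41974 and 61299 reads. The pooled level was 47.3% (46.8% to 47.7%) and that of 100 ng 56.2% (55.9% to 56.6%), with a log2 odds difference of −0.52 (SE 0.06, adjusted p = 0.0377). The call was lost without the 20 ng list (adjusted p = 0.386), while the difference, −9.49 points, remained. The centrosome scaffold gene cep192 had 57.7%, 60.4% and 64.9% against 68.7% (adjusted p = 0.0316, lost without the 5 ng list at 0.0514 and without the 10 ng list at 0.111). In both genes, 5 ng was the lowest list.

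The other 14 genes called lower had differences of −5.73 to −1.24 points and were picked out here because they were called. The lowest adjusted p belonged to rcbtb1, an RCC1 and BTB domain gene on chromosome 2, with 37.4%, 39.3% and 39.6% at 5, 10 and 20 ng against 44.2% at 100 ng (log2 odds difference −0.32, SE 0.03, adjusted p = 1.59e-06). Next to it stood the unnamed genes LOC100489930 (42.0% pooled against 47.4%, adjusted p = 0.000951) and LOC105946361 (34.1% against 39.8%, adjusted p = 0.00442). These 3 genes were called without each lower list in turn, as were ccna1 and lsm14b. Some sites of rcbtb1 are adjacent bases, so 1 fragment could be counted at both and its reads are not all independent. Sites within 100 bases were present in 6 of the 28 called genes and in 616 of all 2925 kept genes.

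Smaller differences were called in xpo6, the exportin of actin (41.6% against 44.2%), in acin1, which encodes the splicing-associated protein acinus (47.4% against 50.4%), and in LOC100170427 (16.4% against 17.6%). The signal recognition particle gene srp72 had 18.6% against 23.0%, and the junction scaffold gene magi1 46.5% against 50.9%. Each of these 5 calls was lost without at least 1 lower list. Over all 28 called genes, 13 were called without each of the 3 lists in turn and 15 were lost without at least 1. The 5 ng list was the farthest from 100 ng in 21 of the 28, the 10 ng list in 4 and the 20 ng list in 3. Over all kept genes, 5 ng also differed most from 100 ng, with an SD of 4.63 points against 4.36 at 10 ng and 3.98 at 20 ng. The same count over all kept genes is not given, so the pattern cannot be called particular to the called genes.

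**Figure D3:**
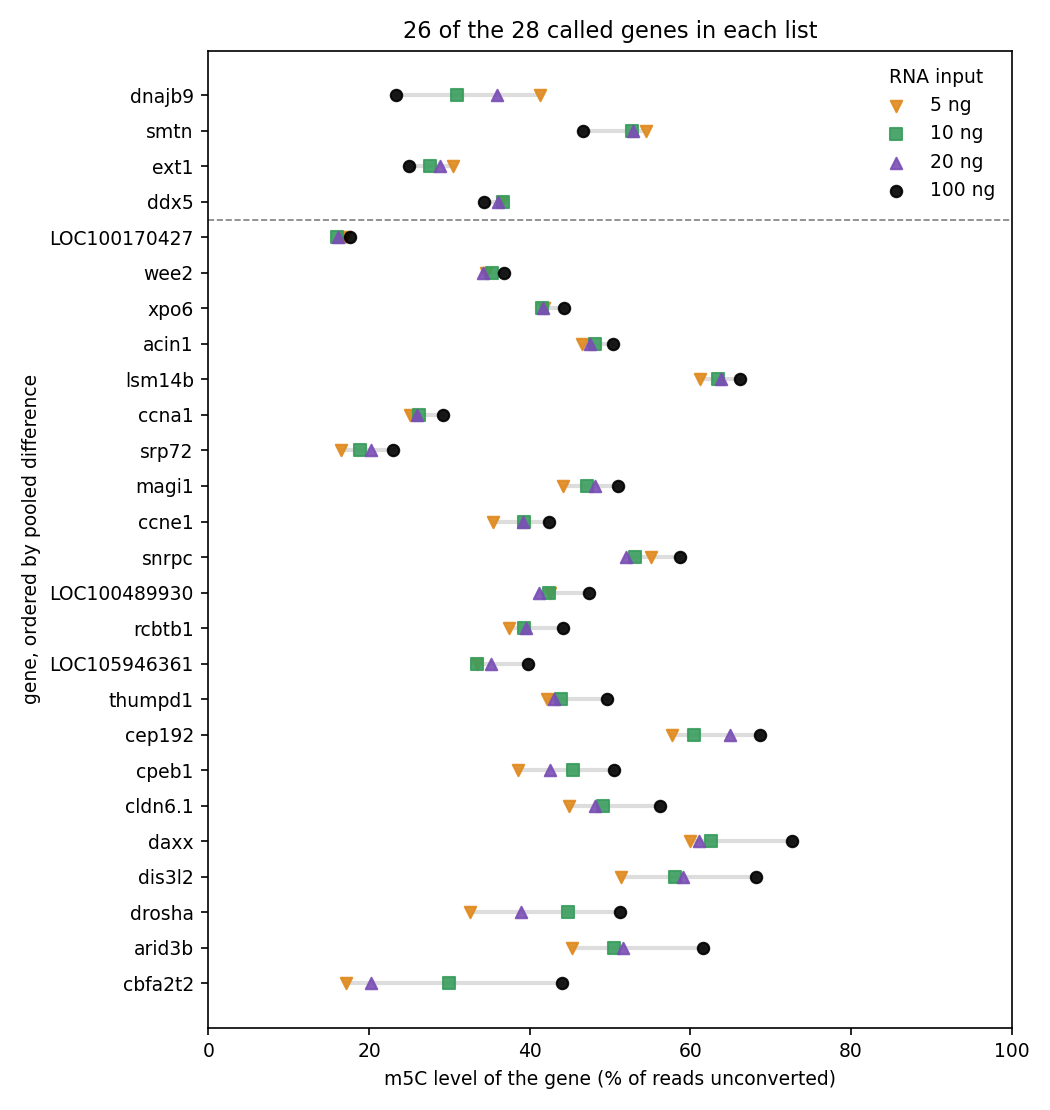
The m5C level (% of reads unconverted, x axis) of 26 of the 28 called genes is shown at 5, 10, 20 and 100 ng, with genes ordered by the pooled difference and the dashed line between the 4 higher and the 22 lower that are shown. The 100 ng point lies outside the range of the 3 lower inputs in every row, which the call on the same values favours. The widest gap is that of cbfa2t2, 21.7% pooled against 44.1%.

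The difference of a gene with several sites has 2 parts. The level part is what remains when each lower-input site level is weighted by the reads that the site had at 100 ng. The mix part is the rest, and it is not 0 when sites of unequal level take other shares of the gene's reads at the lower inputs. In the 1987 genes with 2 or more sites, the level part had an SD of 2.28 points and the mix part of 2.04 points. The mix part was the larger in 759 of them (38.2%), exceeded 2 points in 382 and exceeded 5 points in 77.

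Among the called genes the mix part was the larger in 25 of 28, and the exceptions were ccna1 and snrpc, with 1 site each, and LOC100170427. In each of the 22 multi-site genes called lower, the site with the highest level at 100 ng took a smaller share of the gene's reads in all 3 lower inputs than at 100 ng. In each of the 4 genes called higher that site took a larger share in all 3. These genes were called on the same reads, so the counts describe them and test nothing. The same counts over all multi-site genes are not given, so the pattern cannot be called particular to the called genes. In 14 of the 26 called multi-site genes the level part was under 1 point in size. Over all 1987 multi-site genes its median size was 1.21 points, so many genes that were not called also had a small level part.

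**Figure D4:**
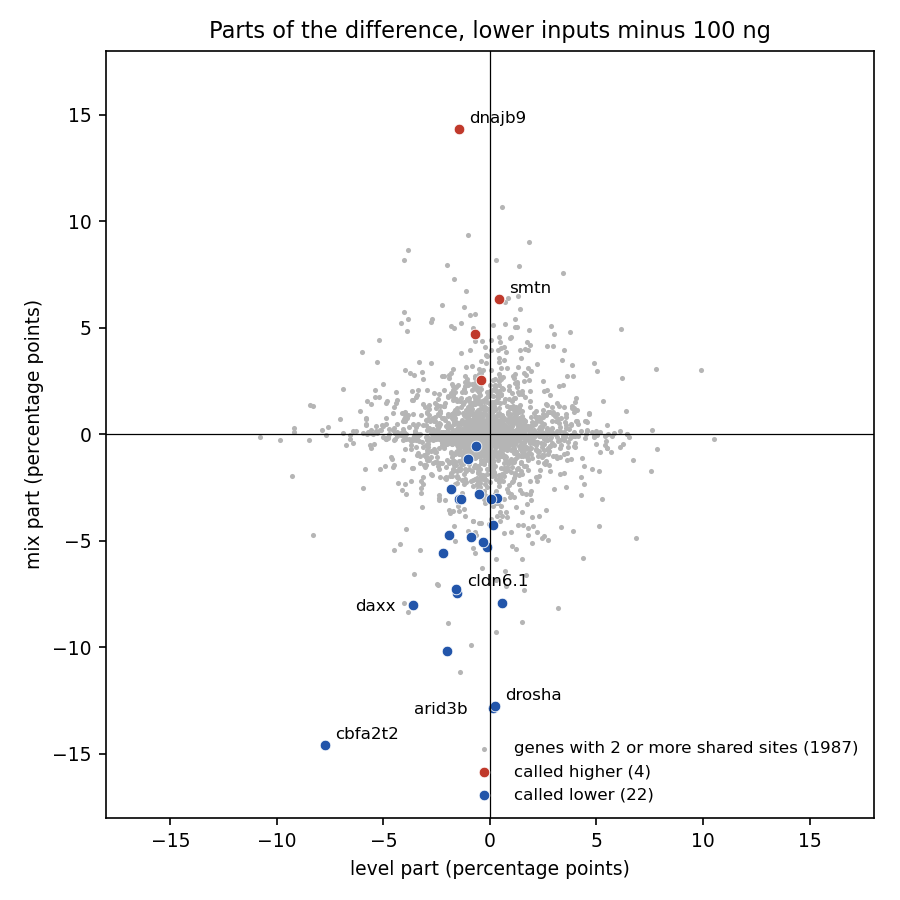
For the 1987 genes with 2 or more sites, the x axis gives the level part and the y axis the mix part of the difference, in percentage points. The genes called higher (4, red) and lower (22, blue) are spread along the y axis, from 14.3 points in dnajb9 to −14.6 points in cbfa2t2.

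Both sites of dnajb9, at positions 56011026 and 56011130 of chromosome 3 (plus strand, X. tropicalis genome v9.1), show this. The 5′ site had a level of 13.7% at 100 ng and 13.0% in the pooled lower inputs, and the 3′ site had 78.0% and 72.3%. The 3′ site took 14.97% of the gene's reads at 100 ng but 47.5%, 34.5% and 35.1% at 5, 10 and 20 ng. Neither site was higher in the pooled lower inputs while the gene was, with a level part of −1.47 points and a mix part of 14.3 points.

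In drosha the 5′ site (chromosome 6, position 54212217, plus strand) had 14.2% at 100 ng and 15.7% in the pooled lower inputs, and the 3′ site (54239016) had 91.0% and 89.9%. The 3′ site held 48.2% of the reads of the gene at 100 ng and 28.8%, 34.5% and 29.97% at 5, 10 and 20 ng. The level part was 0.233 points and the mix part −12.8 points. For arid3b these parts were 0.140 and −12.8 points, and its most methylated site, 73.0% at 100 ng, took 76.6% of the reads at 100 ng and 45.1% to 57.9% at the lower inputs.

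The sites of cldn6.1 lie at 7055054 and 7054655 on the minus strand of chromosome 9. The 5′ site had 72.8% at 100 ng and 71.5% in the pooled lower inputs, and the 3′ site had 14.9% and 12.7%. The 5′ site held 71.4% of the reads at 100 ng and 54.8%, 61.6% and 60.6% at 5, 10 and 20 ng. The level part was −1.57 points and the mix part −7.43 points.

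**Figure D5:**
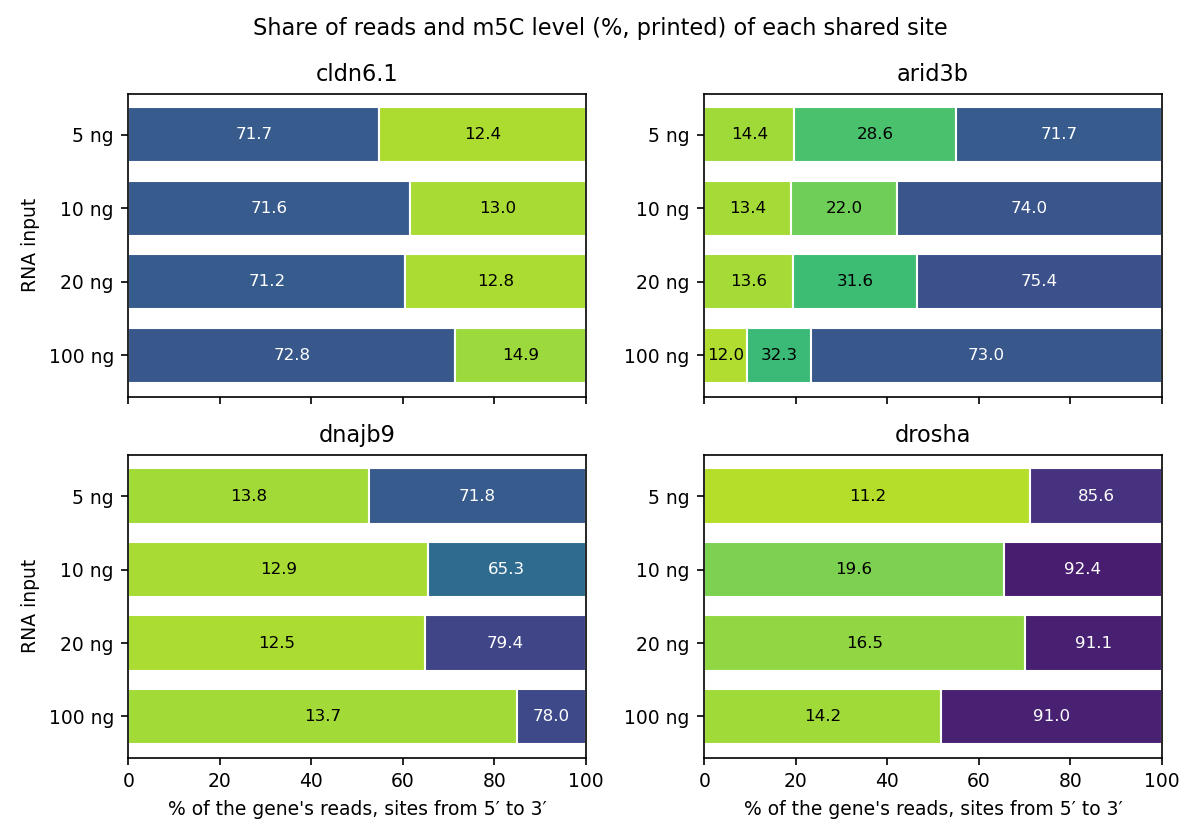
Each bar is 1 list and each segment 1 shared site, in 5′ to 3′ order, with its width the site's share of the gene's reads (x axis, %) and the printed number its m5C level in %. The widths differ between 100 ng and the lower inputs more than the printed levels do, as in dnajb9, where the 3′ site holds 14.97% of reads at 100 ng and 47.5% at 5 ng.

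Other called genes were of the same kind. In rcbtb1, 2 adjacent sites at 146454812 and 146454811 (minus strand) had levels of 65.6% and 92.7% at 100 ng and 65.0% and 92.5% at the lower inputs. Together with 4 sites of 10.5% to 31.6%, they gave a level part of −0.156 points and a mix part of −5.27 points. The second of the pair took 22.3% of the reads at 100 ng and 16.5%, 18.5% and 18.3% at 5, 10 and 20 ng. For ext1 the site with the highest level, 86.8% at 100 ng, held 5.98% of the reads at 100 ng and 15.9%, 10.0% and 12.1% at the lower inputs. The level part of ext1 was −0.716 points and its mix part 4.72 points. In cbfa2t2, by contrast, the level part was −7.76 points beside a mix part of −14.6 points, and its more methylated site had 77.9% at 100 ng and 60.6% in the pooled lower inputs, from 145 and 71 reads.

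The same test was run at the 100 ng site mix, an analysis chosen after seeing the data. An unadjusted p under 0.05 was found in 167 of the 2925 kept genes, a count that includes genes expected without any difference. Of the 3831 genes tested, 1 was called (0.0261%). That gene was ccna1, which encodes the embryonic A-type cyclin and has 1 shared site, at position 148991090 on the minus strand of chromosome 2. Its level was 25.2%, 26.3% and 25.9% at 5, 10 and 20 ng, against 29.2% at 100 ng (28.4% to 29.97%, 13784 reads). The pooled level was 25.8% (24.97% to 26.6%, 11621 reads), with a log2 odds difference of −0.25 (SE 0.05), an adjusted p of 0.00879 in the first test and 0.048 at the site mix. The 3 lower inputs were all below 100 ng.
The other single-site gene that was called, snrpc, a component of the U1 snRNP, had 55.1%, 53.1% and 52.0% at 5, 10 and 20 ng and 58.6% at 100 ng (adjusted p = 0.0461). For single-site genes the levels are the same in both fits, and only the shared spread and the adjustment over the other genes differ. At the site mix snrpc was not called (adjusted p = 0.235), nor without the 10 ng list (0.111) or the 20 ng list (0.174).

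In a small majority of genes, reads lay nearer the 3′ end at the lower inputs. The scale ran from the first to the last shared site of a gene in genome positions, so it includes any introns. On it, the mean position of a gene's reads lay nearer the 3′ end than at 100 ng in 59.8%, 54.4% and 55.4% of the 1987 multi-site genes for 5, 10 and 20 ng. For the pooled lower inputs it was 58.4% (1160 genes), with a median shift of 0.846% of that span. Among the 26 called multi-site genes, 15 were shifted to the 3′ end. Whether this shift had a part in the called differences was not tested.

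Coverage per gene was compared as well. The ratio of lower-input to 100 ng reads, scaled to 1 over all kept genes, had a median of 1.02 and lay between 0.792 and 1.46 in the central 90% of genes. It was above 1.5 in 125 genes and below the inverse of 1.5 in 17. The 3 highest ratios were those of ptma, which encodes prothymosin alpha, at 4.21, cdca9, a borealin-related gene of the chromosomal passenger complex, at 4.15, and bicd2, a dynein adaptor, at 3.10. All 3 were highest at 5 ng, with 8.40, 6.42 and 4.64, against 1.97, 3.15 and 2.20 at 10 ng and 2.42, 3.002 and 2.53 at 20 ng. None of them was called for its level, for example 16.2% against 20.3% in ptma from 605 and 212 reads (adjusted p = 0.795). The lowest ratios, 0.557 in the zinc finger and homeobox gene zhx2, 0.583 in the cargo receptor gene cnih1 and 0.593 in the proton pump gene atp6v0e1, were alike in the 3 lower inputs, at 0.533 to 0.586, 0.538 to 0.634 and 0.538 to 0.654.

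Genes of the egg and of early development were then described by function, in 8 lists chosen with the published account of these data known. In the list of mitosis and cell cycle genes, 42 of 67 were kept, and their median difference was −0.069 points, beside −0.194 over all kept genes. By the test, 3 members were lower and none was higher. Besides ccna1 these were ccne1, which encodes cyclin E1, with 35.4%, 39.3% and 39.1% at 5, 10 and 20 ng against 42.4% at 100 ng (adjusted p = 0.0302, and 0.0514 without the 5 ng list), and wee2, the oocyte kinase that inhibits Cdk1, with 34.6%, 35.3% and 34.2% against 36.8% (adjusted p = 0.046, and 0.197 without the 20 ng list). The mix part was −3.06 of −4.50 points in ccne1 and −1.14 of −2.16 points in wee2. The most covered members, ncapd2 of condensin and plk1, the polo-like kinase, were not called. In plk1 the levels were 31.3%, 31.6% and 31.0% at 5, 10 and 20 ng and 31.5% at 100 ng, from 56017 and 83395 reads.

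Of 76 regulators of maternal mRNA, 27 were kept, with a median difference of −0.414 points. Lower levels were called in cpeb1 and in lsm14b, a component of oocyte ribonucleoprotein particles, and higher ones in no gene. The mix part of cpeb1 was −7.25 of −8.85 points. The level of lsm14b was 61.2%, 63.4% and 63.8% at 5, 10 and 20 ng and 66.2% at 100 ng (adjusted p = 0.0233), with a mix part of −2.78 of −3.30 points. The most covered gene of this list, caprin1, an RNA-binding protein of cytoplasmic granules, had 28.9% pooled and 28.4% at 100 ng. Among chromatin regulators, 44 of 69 were kept, with a median of −0.445 points, and daxx was the 1 called. The mix part of daxx was −7.99 of −11.6 points. The DNA methyltransferase gene dnmt1 had 35.3%, 36.0% and 35.2% at 5, 10 and 20 ng and 36.6% at 100 ng (adjusted p = 0.171), and the SWI/SNF subunit gene smarcc1 had 40.4% pooled and 39.6% at 100 ng.

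The RNA modification enzymes, of which 25 of 57 were kept, had a median of −0.059 points and 1 called gene, thumpd1. The mix part of thumpd1 was −4.73 of −6.63 points. The deepest genes of this list were tyw1 and mettl16. The level of tyw1, for the wybutosine base of tRNA, was 21.5% pooled and 22.5% at 100 ng. That of mettl16, an m6A methyltransferase, was 14.7% and 14.6%. In the other 4 lists no gene was called. These were DNA replication and repair (32 of 68 kept, median −0.378 points), translation machinery (23 of 59, median −0.293), the ubiquitin system (23 of 70, median 0.019) and signalling receptors and matrix (23 of 72, median 0.137). In the replicative helicase gene mcm7 the level was 24.5% pooled and 24.1% at 100 ng, in the translation factor gene eif4g2 24.0% and 23.4%, and in the integrin gene itga5 24.6% and 24.7%. Over all 3831 genes tested 0.731% were called. The lists count kept genes only, and all 28 called genes were among the 2925 kept, so the share among kept genes is higher. The counts of 0 to 3 among 23 to 44 genes a list were not tested against either share.

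The genes with the most reads had small differences. LOC100491633, with 94882 lower-input reads and 150929 at 100 ng over 9 sites, had 22.4%, 22.8% and 22.1% at 5, 10 and 20 ng and 22.8% at 100 ng. The glutamine synthetase copy glul-like.2, whose reads could be shared with related copies, had 22.2% pooled and 22.1% at 100 ng, the KH-domain splicing regulator khsrp had 24.1% and 24.5%, and the splicing factor srsf1 11.8% and 11.6%. None of these was called, nor was ncapd2, with 30.2% and 29.3%. At a comparable depth of 44089 and 64870 reads, rcbtb1 was called with a difference of −5.43 points.

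None of the 3 genes with the most shared sites was called. In kmt2b, a histone H3 lysine 4 methyltransferase with 23 shared sites, the level was 29.1%, 31.5% and 31.4% at 5, 10 and 20 ng and 32.6% at 100 ng (adjusted p = 0.112), with level and mix parts of −0.938 and −0.987 points. In polq, the DNA polymerase theta gene with 20 sites, it was 34.5% both pooled and at 100 ng. The type IV collagen gene col4a5, with 16 sites, had 51.0%, 55.7% and 48.8% against 49.6%, and its lower inputs lay on both sides of 100 ng. In genes with 3 or more sites, the site levels of 1 gene could span most of the scale or almost none of it. The range at 100 ng was widest in the chromatin gene kmt2d (85.5 points over 9 sites), where a mix part of −3.67 points outweighed a level part of 1.51 points. Among the narrowest was that of the mitochondrial release factor gene mtrf1l (1.37 points over 3 sites), where the mix part was −0.216 points and the level was 15.8% pooled and 14.8% at 100 ng.

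At the ends of the scale, single-site genes carried the values. The highest level at 100 ng was that of kars, the lysyl-tRNA synthetase gene, with 97.4% and 97.5%, 94.5% and 94.5% at 5, 10 and 20 ng. The splicing gene ik had 96.6% at 100 ng and 97.2% pooled, and thoc1, of the mRNA export complex THO, had 95.9% and 95.8%. The lowest levels at 100 ng were 10.0% in gpx3, a glutathione peroxidase gene, 10.1% in prkra and 10.2% in the ribosomal protein gene rpl6. All 5 genes with the lowest levels at 100 ng were higher when pooled, from 11.2% in gpx3 to 19.0% in ctnnbip1, although they were chosen for their low value at 100 ng and none was called. At the read minimum, mtmr8 and ncapd3 were just inside with 200 lower-input reads and differences of 2 and −3.3 points. Just outside it, with 199, cct8 and phf13 differed by 4.25 and −1.61 points.

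A test of the pooled reads alone, Fisher's exact test with the same adjustment, called 147 of the 3831 genes (3.84%), of which 144 were kept genes, 48 higher and 96 lower, and these included all 28 genes above. It compares libraries, not inputs. The same test between pairs of lower inputs called 45 genes (1.17%) in any pair, 39 of them kept genes and 3 of these among the 28. Kept genes called for the pair of 5 and 10 ng numbered 25, those for 5 and 20 ng 20, and those for 10 and 20 ng 2.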

How the data were processed

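RNA BS-seq of stage 0 embryos was analysed from 4 site lists. According to the study's methods, reads were trimmed with cutadapt and Trimmomatic and mapped to the converted genome (X. tropicalis v9.1, Xenbase) with HISAT2 and then to the converted transcriptome with Bowtie2. Reads that kept many cytosines were dropped and sites tested against the conversion rate of their gene, which can lower levels in dense clusters of sites. The submitters' processing notes list HISAT2 2.10. Per site, the authors deposited the count of C and T reads (coverage) and the m5C level as a fraction. A p-value and a call were deposited too and not used. The minimum in the lists was 20 reads and a level of 10%.

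Unconverted reads were level times coverage, whole to within 2.6e-05 reads, and were summed per gene identifier over shared sites. The log2 odds of each gene and list, with 0.5 added to both read numbers, were fitted with limma 3.58.1 (R 4.3.3) with weights for reads and level, robust moderation and Benjamini-Hochberg adjustment over 3831 genes, two-sided. The test was also run on simulated gene reads, which held no shift of reads between sites. Fisher's and Cochran-Mantel-Haenszel tests used scipy 1.17.1 and pandas 2.3.3. Alternatives changed the read minimum, the sites, the lists pooled, the weights and the test. No correction for site overlap was made.

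Named genes were up to 10 called in each direction by size of difference (filled to 5 by p), the extremes of level, reads, sites, coverage ratio and site range, the 2 deepest of each list, and those next to the read minimum. The other called genes were named because they were called. Some results on single genes are not reported here, though counts include those genes. Members and lists were chosen with earlier results of these data known. Of 2908 gene symbols, 2763 were in the RefSeq gene table, which was used for nothing else. Positions are copied from the lists, and whether they start from 0 or 1 is not stated. No genome of v9.1 was used here, so sites were not placed in exons or UTRs and no sequence is shown.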

Additional observations from a re-analysis of the deposited data

Results flagged for a closer look

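Some of the named genes differed between the lower inputs themselves, by Fisher's exact test on the reads of 2 lists adjusted over all genes and pairs, which compares single libraries. In cldn6.1 the 5 ng level was below that of 10 ng (difference −4.19 points) and of 20 ng (−3.21 points). In rcbtb1, 5 ng was below 20 ng (−2.11 points). In btrc, an F-box gene of the ubiquitin system that was not called against 100 ng, 5 ng was below 10 ng (−6.17 points) and 20 ng (−6.47 points), with 28.5%, 34.7% and 34.97% at 5, 10 and 20 ng and 32.9% at 100 ng. In ncapd2, 5 ng was above 20 ng (1.497 points). These differences between lower inputs were not split into level and mix parts. The most methylated site of cldn6.1 held 54.8%, 61.6% and 60.6% of its reads at 5, 10 and 20 ng. That of rcbtb1 held 16.5%, 18.5% and 18.3%.

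Sites absent from the 100 ng list entered no comparison of genes. Among them, 183 sites in 180 genes were listed at all 3 lower inputs. Sites listed at some but not all lower inputs are not in this count. Of these, 133 lay in genes of the comparison and 19 in genes with no listed site at 100 ng. Their median level was 13.1% (10.2% to 63.2%) and their median pooled coverage 256 reads.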

How the results depend on the processing

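No paired analysis was possible because the groups compared share fewer than 2 replicate numbers and the 100 ng libraries are 1 list. The 4 higher and 24 lower calls became 7 and 32 with sites of at least 50 reads, 2 and 11 with sites of at least 20%, 8 and 32 with a trend, 8 and 30 when adjusted over the kept genes only, and 48 and 96 by Fisher's test. They became 0 and 0 without weights and with sites in the 100 ng list and any lower list, and 0 and 1 at the 100 ng site mix. With sites in any lower list, the lists sum unlike sites. A Cochran-Mantel-Haenszel test by site called 3 and 17, of which 3 were among the 28. Leaving out 1 lower list gave 6 to 8 higher and 19 to 24 lower calls, with 19 to 22 of the 28 kept. The cause of these changes was not tested.

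The median difference of −0.194 points became −0.432 with sites of at least 20% and −0.301 for 5 ng alone. It reversed to 0.676 with sites in any lower list, where the sides sum unlike sites. It was −0.129 to −0.217 when 1 list was left out. At the 100 ng site mix the difference reversed in 9 called genes, among them to −1.47 points in dnajb9, −0.716 in ext1, −0.432 in ddx5, 0.140 in arid3b, 0.233 in drosha, 0.349 in xpo6 and 0.042 in acin1. It kept its direction without a call in 18 and its call in ccna1. Depth limits genes near 200 reads, and the lone 100 ng list gives no spread.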
